A study of Mus musculus with 12 samples.

Results

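The ADAMTS genes described here were 10 members of the family of secreted metalloproteinases with thrombospondin motifs, Adamts1, Adamts2, Adamts4, Adamts5, Adamts6, Adamts7, Adamts9, Adamts12, Adamts15 and Adamts16. They were taken by gene name from the 55401 genes of the expression table, and all 10 were found. Bone marrow mesenchymal stem cells (MSCs) of C57BL/6 mice, bought from a commercial supplier, were sequenced as poly(A) mRNA in 4 groups of 3 libraries each. The groups were MSCs without treatment, MSCs given TGF-β1 at 5 ng/mL, and MSCs given the same TGF-β1 together with supernatant of either M-MDSCs or G-MDSCs, which are the monocytic and granulocytic kinds of myeloid-derived suppressor cell, here sorted from cultured mouse bone marrow. TGF-β1 is the cytokine used to turn MSCs into matrix-secreting myofibroblasts, and the supernatants were added to ask how MDSC products alter that response. All supernatant-treated cells had also received TGF-β1, and no group received supernatant alone or conditioned medium of another cell.

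Nothing in the labels says whether the 3 libraries of a group came from separate cultures, so the p-values below measure the spread between these libraries, which may be technical. The libraries held 73977669 to 84565450 counts. Low counts often fell on multiples of 4: among those from 1 to 12, 44.3% took the values 4, 8 or 12. The MSC markers Itgb1 (CD29), Cd44 and Ly6a (Sca-1) stood at means of 254, 39.5 and 245 FPKM in untreated cells, and Kit and Ptprc, which MSCs lack, had 0 counts in every untreated library. Together with Pecam1, another gene that MSCs should not express, they summed to at most 0.233 FPKM in any library. FPKM is fragments per exon length and mapped reads, so it is a level per length and can be compared between genes. Ly6a did not keep its level, with a mean of 16.2 FPKM under TGF-β1.

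ADAMTS enzymes are made as inactive precursors, cut by furin-type convertases on the way out of the cell, and act on the matrix around it. Their catalytic domain holds a zinc ion, and the thrombospondin repeats and spacer behind it set which substrate is bound. Adamts1, Adamts4, Adamts5, Adamts9 and Adamts15 belong to the proteoglycanase branch, which cuts versican and aggrecan. Adamts2 trims the amino propeptide from fibrillar procollagens, a step that collagen needs before it can form regular fibrils. Adamts7 and Adamts12 are a closely related pair that cut cartilage oligomeric matrix protein, and Adamts6 and Adamts16 act on fibrillin microfibrils and on fibronectin, respectively.

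The 36 coding bases of the zinc-binding site are shown for each gene, because they code for the catalytic core that all 10 enzymes have and they show how close the members are. They were read 5′ to 3′ on the coding strand from GENCODE M21 transcripts on GRCm38, and the capitals mark the codons of the 3 histidines that hold the zinc.
Adamts1: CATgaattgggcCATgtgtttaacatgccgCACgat
Adamts4: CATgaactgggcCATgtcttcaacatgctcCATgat
Adamts5: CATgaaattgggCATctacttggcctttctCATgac
Adamts9: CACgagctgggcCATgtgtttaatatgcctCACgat
Adamts15: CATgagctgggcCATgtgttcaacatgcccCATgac
Adamts2: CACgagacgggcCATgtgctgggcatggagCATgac
Adamts7: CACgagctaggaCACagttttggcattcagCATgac
Adamts12: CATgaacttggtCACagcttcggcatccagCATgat
Adamts6: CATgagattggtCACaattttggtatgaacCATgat
Adamts16: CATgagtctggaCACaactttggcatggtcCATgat

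In all 10 genes an exon junction cut the site, after 10 bases in Adamts1, Adamts4, Adamts5 and Adamts15 and after 17 bases in the other members. The junction thus separated Adamts9 from the rest of the proteoglycanase branch. Over the 36 bases, 14 positions were the same in all 10 genes. The sites had been located by a protein pattern with fixed places for the 3 histidines, a glutamate and an aspartate. Most of the shared positions follow from that search. Adamts4 and Adamts15 were the most alike, with 32 identical bases, followed by Adamts1 and Adamts9 with 31. Adamts6 and Adamts16 shared 29 and Adamts7 and Adamts12 shared 28, whereas Adamts5 and Adamts9, of the same branch, shared only 20. The sites lay in the coding sequence, for example in exons 3 and 4 of Adamts1 (chr16:85799188-85799545, minus strand), in exons 8 and 9 of Adamts9 (chr6:92905282-92908493, minus strand) and in exons 7 and 8 of Adamts12 (chr15:11241529-11255567, plus strand), where each range includes the intron between the exons.

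The first comparison asked how TGF-β1 changed these genes in MSCs. Under TGF-β1 the proteoglycanases Adamts9, Adamts5 and Adamts1 and the procollagen propeptidase Adamts2 fell, while Adamts12, Adamts6 and Adamts4 rose. Adamts16 was also called higher, but it entered the test only through the treated libraries and its call was lost in several settings, as given with its values. Counts entered edgeR's quasi-likelihood F test, two-sided, over the 15037 genes that had at least 40 counts in at least 3 of the 12 libraries, and a gene was called at a Benjamini-Hochberg adjusted p under 0.05. Of the 10 members, 9 passed that filter and 8 were called, 4 higher and 4 lower, against 31.3% of all genes tested, 14.4% higher and 16.9% lower. In the same 8 genes the FPKM of the untreated and the TGF-β1 libraries did not overlap, which was the case for 45.1% of all genes tested. By the calling rule of the study's methods, a fold above 2 or below 0.5 with an unadjusted p under 0.05, 5 of 9 members passed (Adamts5, Adamts6, Adamts9, Adamts12 and Adamts16), against 9.52% of all genes tested. Adamts16 passed the filter only through the treated libraries, where it was high, so its call and its lack of overlap carry no weight in these counts, and 7 of the other 8 members were called. With bulk RNA, fewer cells that express a gene and less RNA per cell cannot be told apart. The MSC marker list moved in the same comparison, with a summed level of 568 to 583 FPKM in untreated libraries and 496 to 508 FPKM under TGF-β1, and 4 of its 7 genes were higher and 2 lower. That sum was the net of opposite moves. Mean Ly6a fell from 245 to 16.2 FPKM, and mean Itgb1 rose from 254 to 385 FPKM. The myeloid list of 9 markers summed to 26.9 to 27.9 FPKM without treatment and 13.6 to 15.8 FPKM under TGF-β1, mostly Cd14, with 1 of its 5 tested genes higher and 3 lower, and S100a9 and Adgre1 had 0 counts in all 6 libraries. One of the 3, Ly6g, passed the filter only through the untreated libraries (152 to 161 counts, against 4 to 8 under TGF-β1), so its call carries no weight, and 2 of the other 4 were lower. Their part in the changes of the ADAMTS genes was not tested.

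**Figure D1:**
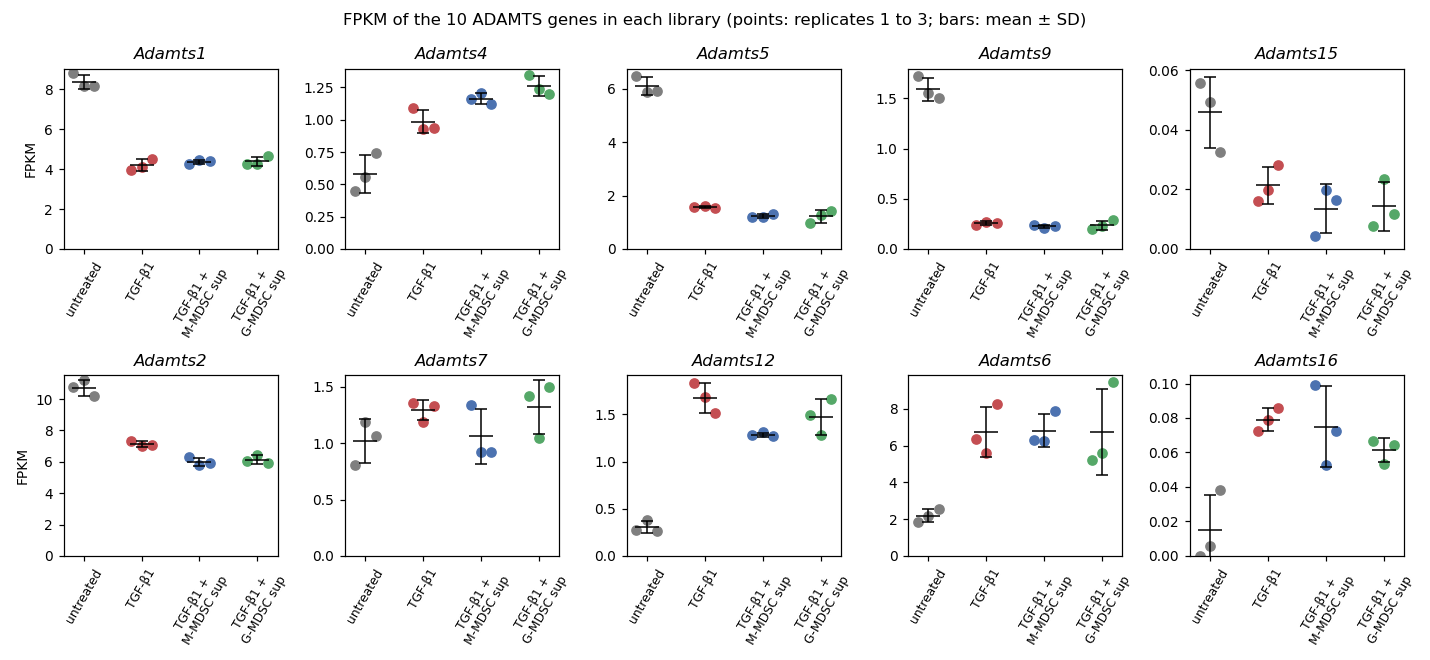
FPKM (vertical axis, linear, from 0, 1 panel per gene with its own scale) of the 10 ADAMTS genes in each of the 12 libraries, grouped on the horizontal axis as untreated, TGF-β1, TGF-β1 with M-MDSC supernatant and TGF-β1 with G-MDSC supernatant; points are libraries in the order of replicates 1 to 3, horizontal bars the mean and whiskers the SD. Adamts1, Adamts5, Adamts9 and Adamts2 dropped from the untreated to the 3 treated groups, and Adamts12, Adamts6 and Adamts4 rose; Adamts9 lies between 1.50 and 1.72 FPKM in untreated libraries and between 0.198 and 0.286 FPKM in the 9 treated ones.

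Among the proteoglycanases, Adamts9, which cuts versican and is needed for its turnover in development, showed the largest fall. Adamts9 (chr6:92772699-92943492) stood at 1.72, 1.55 and 1.50 FPKM in the untreated replicates 1, 2 and 3 and at 0.235, 0.272 and 0.263 FPKM under TGF-β1. The lowest untreated library was thus well above the highest TGF-β1 library. On the log2 scale the change was -2.57 (SE 0.132, adjusted p = 1.13e-07), a level 5.92-fold lower.

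Adamts5, a main aggrecanase of mouse cartilage, stood at 6.48, 5.88 and 5.91 FPKM in untreated libraries and at 1.58, 1.61 and 1.53 FPKM under TGF-β1. The untreated and treated libraries were far apart and each set was tight. Its log2 fold change was -1.89 (SE 0.118, adjusted p = 5.04e-07), 3.71-fold lower. Adamts1, an enzyme of versican and nidogen cleavage that is also known as an inhibitor of angiogenesis, went from 8.79, 8.18 and 8.15 FPKM to 3.95, 4.13 and 4.51 FPKM. Here too no library of a group reached the other group. The log2 fold change of Adamts1 was -0.94 (SE 0.0642, adjusted p = 1.09e-06), 1.92-fold lower. Adamts1 (chr16:85793827-85803113) and Adamts5 (chr16:85856173-85901828) are neighbours on the minus strand of chromosome 16 with 53059 bases between them.

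Adamts4 (chr1:171250421-171260637), the other well-known aggrecanase, moved in the opposite direction. Its untreated libraries held 0.446, 0.555 and 0.741 FPKM and its TGF-β1 libraries 1.09, 0.931 and 0.938 FPKM. The untreated libraries spread widely, with a coefficient of variation of 25.7% against 9.23% under TGF-β1, yet the highest of them stayed below the lowest TGF-β1 library. The log2 fold change was 0.82 (SE 0.161, adjusted p = 0.00252).

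Adamts15, the least expressed proteoglycanase, held 50, 49 and 31 counts in untreated libraries and 16, 19 and 27 counts under TGF-β1. It failed the filter, since 2 of the 12 libraries reached 40 counts. The lowest untreated count lay above the highest TGF-β1 count. In an edgeR fit without a filter its log2 fold change was -1.01 (SE 0.565, adjusted p = 0.336), which did not pass. The sum of the 5 proteoglycanases was 16.7 ± 0.723 FPKM (SD, n = 3) in untreated cells and 7.03 ± 0.210 FPKM under TGF-β1.

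Adamts2 (chr11:50602084-50807573), the procollagen propeptidase, was the most abundant member in untreated cells. Its libraries held 10.8, 11.2 and 10.2 FPKM without treatment and 7.36, 7.03 and 7.08 FPKM under TGF-β1. All untreated libraries lay above all treated ones, although the change was small. In edgeR the log2 fold change was -0.53 (SE 0.0551, adjusted p = 2.87e-05), 1.44-fold lower.

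Adamts12 and Adamts7, whose active sites were shown above to be close, gave different calls. Adamts12 (chr15:11064790-11349231) rose from 0.271, 0.380 and 0.267 FPKM to 1.83, 1.68 and 1.51 FPKM. The lowest TGF-β1 library was several times the highest untreated one. The log2 fold change of Adamts12 was 2.50 (SE 0.150, adjusted p = 3.67e-07), 5.67-fold higher. For Adamts7 the untreated libraries held 0.805, 1.19 and 1.06 FPKM and the TGF-β1 libraries 1.36, 1.19 and 1.33 FPKM, so the groups overlapped. Its log2 fold change of 0.40 had a 95% confidence interval from -0.03 to 0.83 (adjusted p = 0.155), and the difference between the changes of Adamts7 and Adamts12 was not tested. Adamts7 (chr9:90163069-90208071) shares 122 exonic bases (1.94%) with Tbc1d2b on the opposite strand, and whether counting used the strand was not stated. Tbc1d2b had a log2 fold change of -0.27 (SE 0.0796, adjusted p = 0.0248).

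Adamts6 (chr13:104287835-104496695), which acts on fibrillin microfibrils and cell adhesion, rose to near the level of Adamts2. It stood at 1.84, 2.18 and 2.55 FPKM in untreated libraries and at 6.37, 5.59 and 8.24 FPKM under TGF-β1. The groups did not overlap, but the treated libraries were uneven. Its log2 fold change was 1.68 (SE 0.233, adjusted p = 2.33e-04), 3.20-fold higher. Replicate 3 held the highest Adamts6 level in all 4 groups, and the coefficient of variation reached 34.5% with G-MDSC supernatant.

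Adamts16 (chr13:70727802-70841811), a fibronectin-cutting enzyme, had the lowest mean FPKM in untreated cells. It had 0, 4 and 24 counts there and 45, 50 and 53 counts under TGF-β1. The treated libraries were close together, and the untreated ones were not. The log2 fold change was 2.44 (SE 0.817, adjusted p = 0.0427), with a 95% confidence interval from 0.63 to 4.25. The call was lost when no filter was used (adjusted p = 0.0921), when the fit held only the groups compared (adjusted p = 0.117) and when untreated replicate 2 (adjusted p = 0.134) or TGF-β1 replicate 1, 2 or 3 (adjusted p = 0.0717, 0.0794 and 0.0842) was left out. Without untreated replicate 3 the log2 fold change was 4.60 (adjusted p = 0.00116).

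Promoters of Adamts1, Adamts9 and Adamts12 are shown because these genes moved furthest down or up among the 4 members (with Adamts2) found in the RefSeq promoter table of GRCm38.p6. Each run is the 250 bases before the transcription start, 5′ to 3′ on the strand of the gene, at chr16:85803114-85803363 (minus), chr6:92943535-92943784 (minus) and chr15:11064523-11064772 (plus), and capitals mark TATAAA and the GC box GGGCGG, read on either strand.
Adamts1: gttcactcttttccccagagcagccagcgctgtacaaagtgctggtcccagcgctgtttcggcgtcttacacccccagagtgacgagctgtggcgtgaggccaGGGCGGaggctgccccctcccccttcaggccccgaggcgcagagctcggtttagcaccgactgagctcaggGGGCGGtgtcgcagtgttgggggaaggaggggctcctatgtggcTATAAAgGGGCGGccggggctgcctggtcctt
Adamts9: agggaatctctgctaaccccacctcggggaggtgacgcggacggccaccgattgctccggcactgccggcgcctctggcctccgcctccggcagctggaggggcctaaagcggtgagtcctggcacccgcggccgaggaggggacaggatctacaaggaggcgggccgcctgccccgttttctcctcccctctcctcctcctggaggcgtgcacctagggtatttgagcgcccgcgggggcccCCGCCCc
Adamts12: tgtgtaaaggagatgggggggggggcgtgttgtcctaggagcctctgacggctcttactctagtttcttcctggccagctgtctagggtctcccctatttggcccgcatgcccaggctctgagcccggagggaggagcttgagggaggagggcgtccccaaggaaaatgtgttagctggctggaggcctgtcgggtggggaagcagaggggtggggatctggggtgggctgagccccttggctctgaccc

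The SMAD-binding letters CAGAC, the AP-1 letters TGANTCA and the TEAD letters GGAATG were searched on both strands as well, and none was found in these 3 windows or in that of Adamts2. Of 32851 promoter windows of the same length, 42.2% held CAGAC, 6.75% held TGANTCA and 12.6% held GGAATG. The TATA box TATAAA, found in 12.4% of windows, occurred at 1 place, in Adamts1, beginning 32 bases before the start. GGGCGG, found in 32.7% of windows, occurred at 3 places in Adamts1, at 1 in Adamts9, at 5 in Adamts2 and at 0 in Adamts12. The marked stretches did not overlap each other. GC content was 65.6% in the Adamts1 window, 71.2% in that of Adamts9, 78.0% in that of Adamts2 and 63.2% in that of Adamts12. The GC box was present upstream of the 3 genes that fell and not upstream of the 1 that rose. With 4 windows this is a description, and a link between motif and direction was not tested.

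The order of the members by FPKM, a level per length, changed between untreated and treated cells. In untreated cells it ran from Adamts2 (mean 10.7 FPKM) through Adamts1 (8.37), Adamts5 (6.09), Adamts6 (2.19), Adamts9 (1.59), Adamts7 (1.02), Adamts4 (0.580), Adamts12 (0.306) and Adamts15 (0.0458) to Adamts16 (0.0148), and Adamts15 and Adamts16 were the only neighbours that overlapped. Under TGF-β1, Adamts2 (7.16 FPKM) and Adamts6 (6.74) overlapped at the top, Adamts1 (4.19) followed, and Adamts12 (1.67) and Adamts5 (1.58) overlapped next. Below them came Adamts7 (1.29), Adamts4 (0.987), Adamts9 (0.257), Adamts16 (0.0790) and Adamts15 (0.0214), with no overlap between neighbours. Adamts9 thus moved from rank 5 to rank 8, and Adamts12 from rank 8 to rank 4. With M-MDSC supernatant Adamts6 (6.81 FPKM) stood above Adamts2 (6.01) and overlapped it, and the levels of Adamts12 (1.29), Adamts5 (1.23), Adamts4 (1.16) and Adamts7 (1.06) each overlapped the next. With G-MDSC supernatant Adamts6 (6.75) and Adamts2 (6.13) overlapped again, and so did each neighbour in the run of Adamts12 (1.48), Adamts7 (1.32), Adamts4 (1.26) and Adamts5 (1.22).

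The sum of the 10 genes was 31.0 ± 0.493 FPKM (SD, n = 3) in untreated cells, 24.0 ± 1.50 FPKM under TGF-β1, 22.2 ± 0.850 FPKM after M-MDSC supernatant was added and 22.9 ± 2.81 FPKM after G-MDSC supernatant. The proteoglycanases made up 53.9 ± 1.96% of it without treatment and 29.4 ± 1.31% under TGF-β1. Adamts6 went the other way, from 7.08 ± 1.26% to 27.9 ± 3.90%, and Adamts12 from 0.988 ± 0.201% to 7.01 ± 0.964%. The share of Adamts2 was 34.7 ± 1.25% without treatment and 29.9 ± 1.86% under TGF-β1, a smaller shift in percentage points than those just named. With supernatant the proteoglycanase share was 31.5 ± 1.37% (M-MDSC) and 31.3 ± 2.11% (G-MDSC), overlapping the range of 28.5% to 30.9% under TGF-β1 alone. No test was run on these shares.

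**Figure D2:**
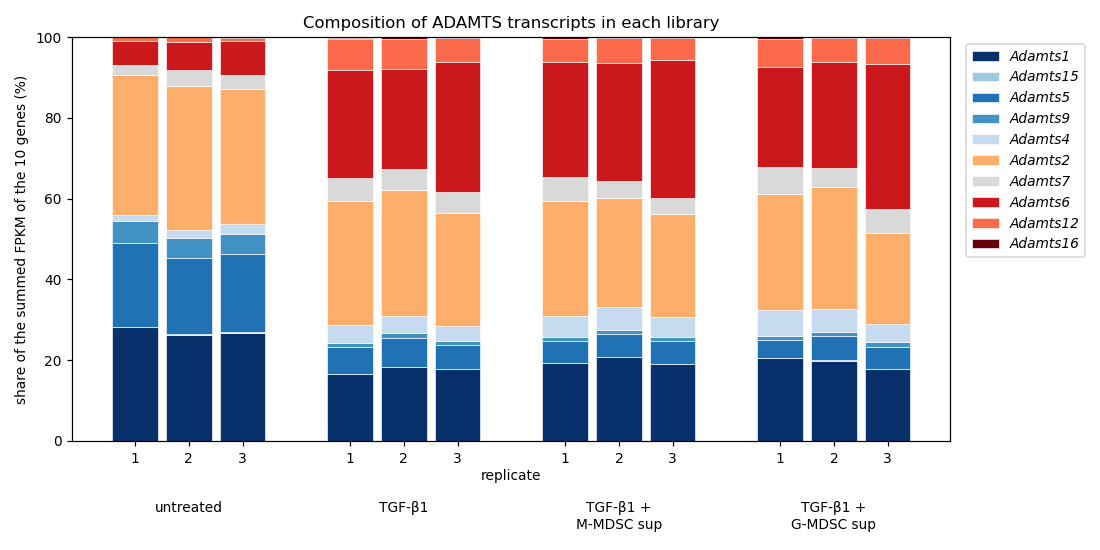
Share of the summed FPKM of the 10 ADAMTS genes (vertical axis, percent) in each library (horizontal axis, replicates 1 to 3 of the 4 groups), stacked by gene with the proteoglycanases in blue at the bottom, Adamts2 in orange, Adamts7 in grey and Adamts6, Adamts12 and Adamts16 in reds at the top. The blue part is 52.1% to 56.0% in untreated libraries and 28.5% to 33.1% in the 9 treated libraries, and Adamts6 takes 5.87% to 8.39% and 24.7% to 36.1%, respectively.

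The second set of comparisons asked whether either supernatant altered these genes in the presence of TGF-β1. Both were made against the same TGF-β1 libraries, so their results are not independent. Adamts2 fell further with either supernatant, and no other member was called. With M-MDSC supernatant 1 of 9 members was called, against 4.65% of all genes tested, and with G-MDSC supernatant 1 of 9, against 5.63%. The study's rule called 0 of 9 with either, while of all genes tested it called 3.20% higher and 0.446% lower with M-MDSC and 3.54% higher and 0.466% lower with G-MDSC supernatant. Groups did not overlap in 4 of 9 members with M-MDSC supernatant (Adamts2, Adamts4, Adamts5 and Adamts12), against 23.5% of all genes tested, and in 4 of 9 with G-MDSC supernatant (Adamts2, Adamts4, Adamts5 and Adamts16), against 22.7%.

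Adamts2 held 6.30, 5.80 and 5.94 FPKM in the M-MDSC group and 6.03, 6.46 and 5.90 FPKM in the G-MDSC group, and every one of these libraries was below the lowest TGF-β1 library of 7.03 FPKM. Relative to TGF-β1 alone, Adamts2 changed by -0.26 on the log2 scale (SE 0.0551, adjusted p = 0.0237) for M-MDSC supernatant and by -0.23 (SE 0.0550, adjusted p = 0.0313) for G-MDSC supernatant. Both falls were thus in the same direction as that under TGF-β1 itself. Both calls were lost when only the groups compared were fitted (adjusted p = 0.0563 and 0.0647). The M-MDSC call was also lost without TGF-β1 replicate 1, 2 or 3 (adjusted p = 0.0844, 0.0640 and 0.0611) or M-MDSC supernatant replicate 2 or 3 (0.0920 and 0.0857), and the G-MDSC call without TGF-β1 replicate 1, 2 or 3 (0.106, 0.0738 and 0.0736) or G-MDSC supernatant replicate 1 or 3 (0.110 and 0.101).

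Of the myeloid markers, Cd14 was called higher with either supernatant than under TGF-β1 alone, and Csf1r, Ly6g and Ly6c2 were not called. The list of 9 summed to 20.5 to 25.9 FPKM in the M-MDSC group and 25.8 to 29.3 FPKM in the G-MDSC group against 13.6 to 15.8 FPKM under TGF-β1. Most of that sum was Cd14, which stood at means of 20.4 and 22.6 FPKM with M-MDSC and G-MDSC supernatant, 13.8 FPKM under TGF-β1 alone and 23.0 FPKM in untreated cells. Lyz2, the lysozyme of macrophages and neutrophils, was at a mean of 1.54 FPKM with M-MDSC and 1.87 FPKM with G-MDSC supernatant and 0.0573 FPKM under TGF-β1 alone. It passed the filter only through the supernatant libraries, so its being called carries no weight, and without it 1 of 4 tested markers was called in each comparison, against 4.65% (M-MDSC) and 5.63% (G-MDSC) of all genes tested. Itgam, S100a8, S100a9 and Adgre1 failed the filter, with 0 to 160 counts in the supernatant libraries. The MSC marker list summed to 549 to 580 FPKM and 527 to 552 FPKM in these groups. Of its 7 genes 1 was higher and 1 lower than under TGF-β1 alone with M-MDSC supernatant (median log2 fold change -0.02), and 2 were higher and 1 lower with G-MDSC supernatant (median 0.10), against the same 4.65% and 5.63% of all genes. Ly6a was higher by 2.51 (adjusted p = 1.91e-07) and 2.04 (adjusted p = 1.29e-06) on the log2 scale, Nt5e (CD73) was higher by 0.70 (adjusted p = 0.0111) with G-MDSC supernatant, and Pdgfrb was lower in both, with log2 fold changes of -0.22 (adjusted p = 0.0155) and -0.40 (adjusted p = 3.39e-04). The part of either list in the Adamts2 difference was not tested.

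Adamts5 was the next closest to a call. It held 1.20, 1.19 and 1.31 FPKM in the M-MDSC group and 0.965, 1.28 and 1.42 FPKM in the G-MDSC group, all below the TGF-β1 libraries. The log2 fold changes were -0.36 (SE 0.115, adjusted p = 0.134) and -0.38 (SE 0.115, adjusted p = 0.0958), which did not pass. DESeq2 called both (adjusted p = 0.0491 and 0.0249), and edgeR called the second without G-MDSC supernatant replicate 3 (log2 fold change -0.50, adjusted p = 0.0312), whereas without replicate 1 of that group the value was -0.24 (adjusted p = 0.148).

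Adamts12 held 1.28, 1.31 and 1.27 FPKM with M-MDSC supernatant, below all TGF-β1 libraries, and 1.49, 1.28 and 1.66 FPKM with G-MDSC supernatant, which overlapped them. The log2 fold changes were -0.38 (95% confidence interval -0.69 to -0.07, adjusted p = 0.197) and -0.19 (-0.50 to 0.12, adjusted p = 0.585). Adamts4 lay at 1.16, 1.21 and 1.12 FPKM and at 1.35, 1.24 and 1.20 FPKM, changes of 0.23 (-0.12 to 0.59, adjusted p = 0.523) and 0.34 (-0.01 to 0.70, adjusted p = 0.309) on the log2 scale. Neither gene passed the test, and the intervals leave room for modest differences.

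For Adamts1 the levels were 4.25, 4.45 and 4.40 FPKM with M-MDSC and 4.28, 4.25 and 4.64 FPKM with G-MDSC supernatant, and both log2 fold changes were 0.05, with intervals from -0.09 to 0.19 and from -0.09 to 0.20. Adamts9 lay at 0.240, 0.213 and 0.225 FPKM and at 0.198, 0.226 and 0.286 FPKM, overlapping TGF-β1 alone, with intervals of the log2 fold change from -0.47 to 0.10 and from -0.41 to 0.15. Adamts6 lay at 6.31, 6.27 and 7.86 FPKM and at 5.20, 5.62 and 9.43 FPKM, also overlapping, with wider intervals from -0.49 to 0.51 and from -0.51 to 0.49. Thus a return of Adamts1 to its untreated level, which lay 0.94 above the TGF-β1 level on the log2 scale, was outside both intervals. Adamts7 held 1.34, 0.920 and 0.919 FPKM and 1.42, 1.05 and 1.50 FPKM, with intervals from -0.72 to 0.14 and from -0.41 to 0.45. Adamts16 had 57, 30 and 44 counts and 43, 33 and 40 counts, and its intervals, from -1.71 to 1.55 and from -2.01 to 1.26, were too wide to read. Adamts15 had 4, 17 and 16 counts and 8, 22 and 12 counts, and in the fit without a filter its log2 fold changes were -0.66 (SE 0.578, adjusted p = 0.686) and -0.57 (SE 0.575, adjusted p = 0.754).

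**Figure D3:**
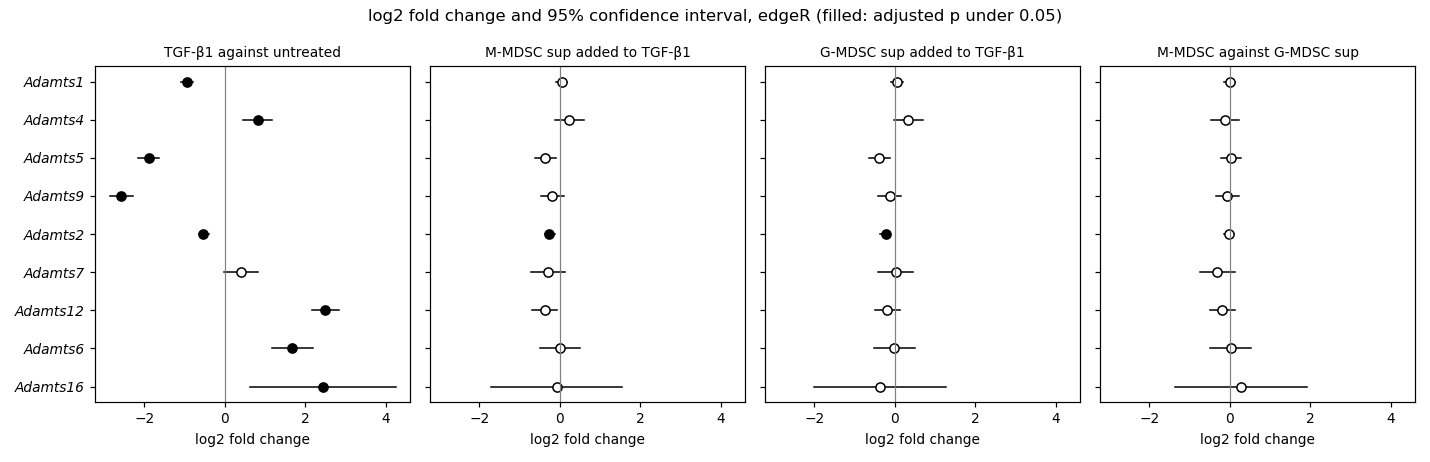
Log2 fold change (horizontal axis, same scale in all panels) of the 9 tested ADAMTS genes (vertical axis) in 4 comparisons, with 95% confidence intervals from the edgeR fit; filled points have an adjusted p under 0.05. Points spread from -2.57 (Adamts9) to 2.50 (Adamts12) in the TGF-β1 panel, and lie between -0.38 and 0.34 in the supernatant panels, where Adamts2 alone is filled.

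M-MDSC and G-MDSC supernatants were also compared with each other. By edgeR 0 of 9 members were called, against 0.0931% of all genes tested, 0 had an unadjusted p under 0.05, against 6.12%, and DESeq2 called 0. Groups without overlap were found in 0 of 9 members, against 12.2% of all genes tested. The log2 fold changes, M-MDSC against G-MDSC, ran from -0.31 for Adamts7 (95% confidence interval -0.74 to 0.12) to 0.29 for Adamts16 (-1.35 to 1.93). The narrowest intervals were those of Adamts2, from -0.14 to 0.10, and of Adamts1, from -0.14 to 0.14. Those of the other proteoglycanases tested ran from -0.46 to 0.24 for Adamts4, from -0.23 to 0.27 for Adamts5 and from -0.34 to 0.23 for Adamts9, and those of Adamts12 and Adamts6 from -0.50 to 0.12 and from -0.48 to 0.52. Adamts15, fitted without a filter, gave -0.09 (SE 0.583, adjusted p = 1.00). For the abundant Adamts2 and Adamts1 the intervals thus leave room for small differences only, whereas that of Adamts16 spans severalfold changes in both directions.

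Against untreated cells, which had received neither TGF-β1 nor supernatant, 8 of 9 members were called with M-MDSC supernatant and 7 of 9 with G-MDSC supernatant, each against 33.4% of all genes tested. The 8 included Adamts16, which entered the test only through the treated libraries and carries no weight here either, and without it 7 of 8 were called in each. Adamts9 was again lowest, with log2 fold changes of -2.75 (SE 0.134, adjusted p = 7.84e-08) and -2.70 (SE 0.133, adjusted p = 9.83e-08). Adamts5 followed with -2.25 (SE 0.119, adjusted p = 1.55e-07) and -2.27 (SE 0.119, adjusted p = 1.59e-07). Adamts12 was higher by 2.12 (SE 0.148, adjusted p = 1.28e-06) with M-MDSC supernatant and by 2.31 (SE 0.149, adjusted p = 7.22e-07) with G-MDSC supernatant. The smaller falls were those of Adamts1, with -0.88 in both (adjusted p = 1.73e-06 and 1.83e-06), and of Adamts2, with -0.78 and -0.76 (adjusted p = 1.42e-06 and 1.84e-06). Adamts6 was higher by 1.69 and 1.67 (adjusted p = 2.18e-04 and 2.50e-04), and Adamts4 by 1.05 and 1.17 (adjusted p = 4.68e-04 and 2.45e-04). Adamts7 was called in neither (log2 fold changes 0.11 and 0.42, adjusted p = 0.719 and 0.129). Adamts15, fitted without a filter, gave -1.67 and -1.59 and did not pass (adjusted p = 0.0826 and 0.0988). Adamts16, called with M-MDSC supernatant (log2 fold change 2.36, adjusted p = 0.0470), was not called with G-MDSC supernatant (2.07, adjusted p = 0.0761), and the direct comparison above gives the difference between the supernatants. Without untreated replicate 3 the values were 4.51 (adjusted p = 0.00125) with M-MDSC and 4.22 (adjusted p = 0.00192) with G-MDSC supernatant. With any other library of the groups compared left out, the G-MDSC value ran from 1.49 to 2.15 and was not called (adjusted p = 0.0918 to 0.208), and the M-MDSC call was lost without untreated replicate 1 or 2 (adjusted p = 0.0510 and 0.141) or M-MDSC supernatant replicate 1, 2 or 3 (0.112, 0.0583 and 0.0753).

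The genes around these enzymes were grouped as other ADAMTS genes, ADAMTS-like genes, substrates, inhibitors and processing enzymes. Under TGF-β1 the procollagens that Adamts2 trims rose while Adamts2 fell. All 5 tested genes of the 6 listed were called higher, against 14.4% of all genes tested, Col5a1 by 1.92 on the log2 scale (SE 0.0758, adjusted p = 1.68e-08), Col3a1 by 1.60 (SE 0.0385, adjusted p = 6.97e-10), Col1a1 by 1.11 (SE 0.0642, adjusted p = 2.77e-07) and Col5a2 by 1.10 (SE 0.0294, adjusted p = 1.22e-09). The median of the list was 1.11, against -0.01 over all genes tested. From these libraries the paper had already reported Col1a1, Col3a1, Col5a1 and Col5a2, and also Fn1 and Timp1, as raised by TGF-β1. It reported most of its markers as reduced by the supernatants. The counts of these lists are thus not independent of what was known. Col1a1 stood at 498 ± 21.7 FPKM in untreated cells and 1033 ± 8.33 FPKM under TGF-β1 (SD, n = 3), far above any ADAMTS gene.

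Of the matrix substrates, 6 of 10 were tested, 4 were higher and 1 lower, against 14.4% and 16.9% of all genes tested, with a median of 0.44. Acan, the aggrecan core protein, rose by 2.61 on the log2 scale (SE 0.247, adjusted p = 1.29e-05) from a low level of 0.136 ± 0.0483 to 0.805 ± 0.0910 FPKM. Fbn1, the main fibrillin, rose by 1.15 (SE 0.0994, adjusted p = 6.64e-06) and Fn1, fibronectin, by 0.48 (SE 0.0733, adjusted p = 4.71e-04). Nid1, nidogen of the basement membrane, fell by 1.69 (SE 0.0570, adjusted p = 4.83e-09). Vcan, the versican gene, was at 10.8 ± 0.994 FPKM in untreated cells and 11.6 ± 1.86 FPKM under TGF-β1, with a log2 fold change of 0.16 (95% confidence interval -0.11 to 0.43, adjusted p = 0.378). Thus Vcan was not called, whereas the summed level of the proteoglycanases was lower in every TGF-β1 library than in any untreated one. Chondrocyte markers, which would accompany Acan in cartilage cells, summed to 1.52 to 1.83 FPKM without treatment and 1.73 to 2.12 FPKM under TGF-β1, nearly all Sox9, and Matn1 and Col9a1 had 0 counts in all 12 libraries.

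The inhibitors, cofactors and clearance receptors gave 1 gene higher and 4 lower of 7 tested and 9 listed, with a median of -0.73, where 14.4% of all genes tested were higher and 16.9% lower. Timp1, a metalloproteinase inhibitor, rose by 1.23 on the log2 scale (SE 0.0569, adjusted p = 5.27e-08). Reck, a membrane-anchored inhibitor, fell by 1.11 (SE 0.143, adjusted p = 1.34e-04), Sdc4 (syndecan-4) by 0.99 (SE 0.0449, adjusted p = 4.50e-08) and Timp2 by 0.97 (SE 0.0384, adjusted p = 1.65e-08). Timp3, the strongest natural inhibitor of the aggrecanases, was at 39.9 ± 1.45 and 36.8 ± 1.95 FPKM, with a log2 fold change of -0.06 (95% confidence interval -0.15 to 0.04, adjusted p = 0.382). Lrp1, the receptor that clears several ADAMTS enzymes, had a log2 fold change of 0.06 (-0.23 to 0.35, adjusted p = 0.768).

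Among the genes of maturation 5 of 6 were tested, with 1 higher, 2 lower and a median of -0.16, where 31.3% of all genes tested were called in either direction. Furin, which removes the propeptide, rose by 0.56 on the log2 scale (SE 0.0767, adjusted p = 2.22e-04), whereas the related convertase Pcsk6 fell by 1.49 (SE 0.113, adjusted p = 2.35e-06). B3glct, which completes a sugar on thrombospondin repeats, fell by 0.27 (SE 0.0890, adjusted p = 0.0389). Of the 9 other ADAMTS genes 4 were tested and 1 was called, a share near that of all genes. It was Adamts14, a relative of Adamts2 that also trims procollagen, which fell by 0.68 (SE 0.227, adjusted p = 0.0410). The ADAMTS-like genes encode related proteins without a protease domain. Of 7 listed, 4 were tested and all were called, against the same 31.3%, Adamtsl3 higher by 2.12 (SE 0.150, adjusted p = 1.37e-06) and Adamtsl1, Adamtsl4 and Adamtsl5 lower, with log2 fold changes of -2.00, -1.58 and -0.47 (adjusted p = 0.0390, 3.78e-04 and 0.0124). The mean level of Adamtsl3 was 0.661 FPKM without treatment and 2.77 FPKM under TGF-β1.

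**Figure D4:**
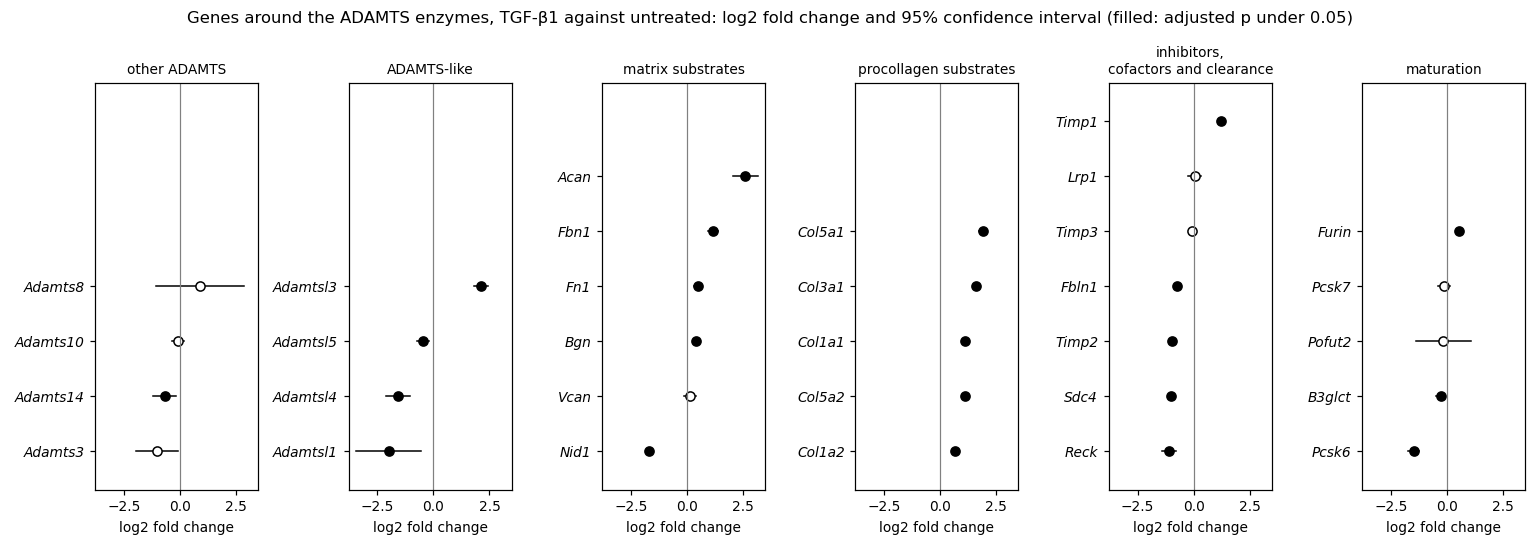
Log2 fold change of TGF-β1 against untreated MSCs (horizontal axis, same scale in all panels) with 95% confidence intervals from edgeR for the tested genes of 6 lists around the ADAMTS enzymes (vertical axis, 1 panel per list); filled points have an adjusted p under 0.05. All 5 procollagen genes lie to the right of 0, from 0.64 to 1.92, and 4 of 7 inhibitor, cofactor and clearance genes lie to the left with filled points.

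With the supernatants some substrate and procollagen genes fell from their TGF-β1 levels, against 4.65% (M-MDSC) and 5.63% (G-MDSC) of all genes tested that were called in either direction. With M-MDSC supernatant Fbn1 fell by 0.42 (SE 0.0983, adjusted p = 0.0374), Fn1 by 0.37 (SE 0.0732, adjusted p = 0.0147), Col3a1 by 0.19 (SE 0.0375, adjusted p = 0.0141) and Col1a2 by 0.16 (SE 0.0367, adjusted p = 0.0300), on the log2 scale. These were 2 of 6 substrates and 2 of 5 procollagens, and no inhibitor was called. With G-MDSC supernatant 2 of 6 substrates, Fn1 and Bgn (biglycan), fell by 0.39 and 0.20 (adjusted p = 0.00917 and 0.0253), and 3 of 5 procollagens, Col5a1, Col1a2 and Col5a2, fell by 0.33, 0.20 and 0.14 (adjusted p = 0.0242, 0.00799 and 0.0138). Procollagen genes and Adamts2 thus moved in opposite directions under TGF-β1, and those called with a supernatant moved the same way as Adamts2. Of the inhibitor list, Timp1 rose by 0.36 (adjusted p = 0.00284) and Sdc4 by 0.17 (adjusted p = 0.0479), and Timp3 fell by 0.18 (adjusted p = 0.0370) with G-MDSC supernatant. Between the supernatants none of the genes of these 6 lists was called.

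The genes whose levels followed the 3 most abundant members most closely were sought among 11461 genes outside the family with a mean of at least 1 FPKM, by Pearson's r of log2(FPKM + 1) over the 12 libraries. These libraries form treated and untreated sets, so the values describe likeness of pattern and carry no test. For Adamts2 they were Plekho2 (r = 0.988), Sec14l1 (0.987) and Fam171a1 (0.987). Plekho2 went from a mean of 8.06 FPKM to 5.86 FPKM under TGF-β1 and on to 5.22 and 5.18 FPKM with M-MDSC and G-MDSC supernatant. For Adamts1 they were Gda (0.995), Parm1 (0.995) and Ezr (0.994), and Parm1 went from 2.48 to 0.625 FPKM. For Adamts6 the closest were Irf2bpl (0.954), G0s2 (0.952) and Pitrm1 (0.950), where the likeness was lower, and G0s2 went from 0.0564 to 1.51 FPKM.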

How the data were processed

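Total RNA of the 12 MSC libraries was poly(A)-selected and sequenced as paired-end reads. Reads were checked with fastp and cutadapt 1.9, aligned to GRCm38 with HISAT2 2.0.4 and assembled with StringTie 1.3.4d and gffcompare, per the paper's methods and the submitters' processing notes. The authors deposited 1 table with raw counts per gene and library and with FPKM, in which the authors wrote a count of 0 as 0.0001. The counting tool and its use of strand are not given in the sources used here.

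All 12 libraries, in 4 groups of 3 taken from the sample titles, entered 1 edgeR 4.0.16 fit (R 4.3.3) with TMM scaling, and p-values were Benjamini-Hochberg adjusted over the 15037 genes with at least 40 counts in at least 3 libraries. Log2 fold changes and SEs came from this fit, and FPKM served for levels, shares and likeness of pattern. On counts simulated for TGF-β1 against untreated cells over the 15037 genes, 195 of 200 changed genes were recovered, with 10 false calls. The simulation gave every gene the same spread setting, and each changed gene a fold of 2 or 0.5 in all treated libraries. It therefore does not speak to smaller changes or to genes that spread more widely between libraries. Alternatives were RLE scaling, DESeq2 1.42.0, limma 3.58.1 on log2(FPKM + 1) and log2(FPKM + 0.1), no filter, an FPKM filter of at least 1 in at least 3 libraries, a fit of only the groups compared, a replicate block, counts divided by 4, the study's calling rule (fold above 2 or below 0.5 with an unadjusted p under 0.05) and leaving out each library. At a depth of 73977669 to 84565450 counts per library, precision was lowest for Adamts15 and Adamts16, which had 0 to 57 counts per library. The parts of depth and of spread between libraries in this were not tested.

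All 10 members were described in every comparison, and genes of the surrounding lists were named where called, up to 4 a list with the largest changes first, together with defining markers and Vcan, Timp3 and Lrp1, which were named after their values were seen. The members and lists were chosen with earlier results of these data known. Sequences came from GENCODE M21 and RefSeq (GRCm38.p6), in which promoters of 4 of the 10 members were found.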

Additional observations from a re-analysis of the deposited data

How the results depend on the processing

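With 3 libraries a group, the members called under TGF-β1 stayed called in every setting with an adjusted p that tested them, except Adamts16, while the smaller supernatant calls of Adamts2 did not. Under TGF-β1 8 of 9 members were called, 7 to 8 when a library was left out, and 5 by the study's rule (fold above 2 or below 0.5 with an unadjusted p under 0.05), under which Adamts1, Adamts2 and Adamts4 were lost because their folds are too small. Adamts16, which entered the test only through the treated libraries, is among both the 8 and the 5 and carries no weight in them. With M-MDSC supernatant against TGF-β1 the count of 1 became 2 with DESeq2, 0 when only the groups compared were fitted, 0 by the study's rule and 0 to 1 when a library was left out. With G-MDSC supernatant the count of 1 became 2 with DESeq2, 0 with limma on log2(FPKM + 1) (Adamts2, adjusted p = 0.0523), 0 with only the groups compared, 0 by the study's rule and 0 to 1 when a library was left out. Between the supernatants the count was 0 throughout (0 to 0 when a library was left out). Against untreated cells it was 8 with M-MDSC supernatant, Adamts16 included (7 to 8), and 7 with G-MDSC supernatant (7 to 8), where DESeq2, limma on log2(FPKM + 0.1) and counts divided by 4 also called Adamts16 (adjusted p = 0.0252, 0.0286 and 0.0334). The Adamts16 call with M-MDSC supernatant against untreated cells was lost without a filter (adjusted p = 0.0995) and with only the groups compared (0.158). The cause of these differences between settings was not tested.

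Changes near 0 turned direction. Adamts6 with M-MDSC supernatant against TGF-β1 was -0.0059 under the FPKM filter, and Adamts1, M-MDSC against G-MDSC, was 0.0012 with RLE scaling and 0.0012 with DESeq2. When a library was left out, the log2 fold change against TGF-β1 ran from -0.11 to 0.18 for Adamts6 and from -0.34 to 0.12 for Adamts16 with M-MDSC supernatant, and from -0.076 to 0.16 for Adamts7 and from -0.32 to 0.16 for Adamts6 with G-MDSC supernatant. M-MDSC against G-MDSC, it ran from -0.023 to 0.036 for Adamts1, from -0.12 to 0.14 for Adamts5, from -0.17 to 0.10 for Adamts9, from -0.059 to 0.020 for Adamts2 and from -0.13 to 0.34 for Adamts6. For Adamts7, M-MDSC supernatant against untreated cells, it ran from -0.10 to 0.25. Of 480 values under the settings other than left-out libraries, 464 kept direction and side of the threshold, and of 324 with a library left out, 281 did.

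Over all genes tested the replicate numbers showed no pairing of libraries: deviations from the group means correlated at a mean r of 0.00651 (-0.088 to 0.0684, 18 pairs) for libraries of the same number and -0.00321 (-0.136 to 0.126, 36 pairs) for others. The second mean follows from the first, since deviations within a group cancel. Single genes can differ: Adamts6, highest in replicate 3 of each group, had an adjusted p under TGF-β1 of 1.28e-05 with a replicate block in edgeR, against 2.33e-04 without. With the replicate block the counts were 8, 1, 1, 0, 7 and 7 in the order above, and Adamts16 with M-MDSC supernatant against untreated cells was the member lost (adjusted p = 0.0509).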
